A study of Homo sapiens with 42 samples.

Results

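HIF-2αDM is HIF-2α with the substitutions R171A and V192D, made so that the protein cannot pair with HIF-1β. Its effect on poly(A) RNA was measured in 786-O cells by setting the 3 libraries labelled HIF-2αDM beside the 3 libraries of unmodified WT cells from the same batch, 6 of the 42 libraries of the series. 786-O is a human clear cell renal carcinoma line without functional VHL, so its own HIF-2α is stable in normal oxygen, and it makes no full-length HIF-1α. The mutant, with V5 and HaloTag at its N-terminus, was added to WT 786-O cells by PiggyBac transposition under the weak L30 promoter, and cells were selected with puromycin as a pool. The endogenous EPAS1 gene, which encodes HIF-2α, was left in place. The WT cells were neither transposed nor selected, so the mutant protein and the procedure that delivered it cannot be told apart in this comparison. The genotype label of the HIF-2αDM libraries names HIF-1α, whereas their titles and descriptions name HIF-2α.

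The other groups of the first batch, each of 3 libraries, served for reference. HIF-2α and HIF-1α lines carried the functional proteins, HIF-2α R27E and HIF-1α R30E carried substitutions in the DNA-binding domain, and HIF-1αDM carried the dimerization substitutions in HIF-1α, all from the same promoter in the same parent cells. The knock-in (KIN) groups, 1 for HIF-1β and 1 for HIF-2α, are single clones with HaloTag at the endogenous gene. A second batch, prepared with other kits, held separate HIF-2α and WT libraries. The study's methods call the 3 libraries of a group biological replicates, and how the cultures were kept apart is not given in the sources used here, so a p-value measures the spread between these libraries.

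HIF-2α belongs to the bHLH-PAS family. It binds DNA as a dimer with HIF-1β, the product of ARNT, at hypoxia response elements with the core ACGTG or GCGTG. The basic region touches the DNA, and the helix-loop-helix and PAS domains hold the partners together. In clear cell renal carcinoma, stable HIF-2α drives genes of angiogenesis, metabolism and growth.

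Both substituted residues lie in the PAS part of the protein. To show them, the hg38 coding sequence of EPAS1 on the plus strand of chromosome 2 is printed for residues 165 to 198, with codons 171 and 192 in capitals, above the matching stretch of HIF1A, residues 164 to 197, with codons 170 and 191 in capitals. Codon 171 is at chr2:46360694-46360696 in coding exon 5 and codon 192 at chr2:46360885-46360887 in coding exon 6. The HIF1A codons are at chr14:61726756-61726758 and chr14:61727453-61727455.
EPAS1: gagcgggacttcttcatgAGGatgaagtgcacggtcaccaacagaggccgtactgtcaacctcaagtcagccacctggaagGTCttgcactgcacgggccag
HIF1A: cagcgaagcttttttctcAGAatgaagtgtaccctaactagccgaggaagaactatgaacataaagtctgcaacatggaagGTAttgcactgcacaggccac
The 2 stretches code for the same residue at 26 of 34 positions and share 73 of 102 bases. These are reference sequences, so the capitals mark the codons that were changed, not the changed bases.

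EPAS1 carried the label check, because reads of the transgene fall on this gene and cannot be told from those of the endogenous copy. Its normalised read count, the count divided by the relative effective size of the library, was 54101, 43729 and 47695 in HIF-2αDM and 12661, 14133 and 16847 in WT. The groups did not overlap, and EPAS1 rose by a log2 change of 1.74 (SE 0.20, edgeR quasi-likelihood test, adjusted p = 6.12e-06). HIF1A stood at 181, 186 and 208 against 240, 228 and 261 in WT, a log2 difference of -0.34 (adjusted p = 0.754). ARNT differed by -0.23 (adjusted p = 0.861). The EPAS1 level of HIF-2αDM was not distinguishable from that of HIF-2α (log2 difference 0.10, adjusted p = 0.840) or HIF-2α R27E (-0.21, adjusted p = 1), and of the 2 α subunits EPAS1 was the raised one.

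Total counts were 61601381 to 101186554 in the 6 libraries, where 3 counts, taken as the smallest detectable number, corresponded to a CPM of 0.0311 to 0.0515. The summed level of 8 renal epithelial markers was 223106 to 273132 in HIF-2αDM and 232579 to 333611 in WT. The summed levels of fibroblast markers were 970 to 1258 and 821 to 1274, with COL1A2 and COL3A1 at or under 3 counts in all 6 libraries, and endothelial markers summed to at most 13.3.

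HIF-2αDM changed few genes, and nearly all of them upward. Of 23410 genes tested, 102 were higher than in WT (0.436%) and 8 were lower (0.0342%) at an adjusted p of at most 0.01 and a fold of at least 2. In each of these genes the libraries of the groups did not overlap, which was so for 7.70% of tested genes in the higher and 8.87% in the lower direction. The median log2 change of the 102 was 1.99, and 50 of them were at least 4-fold higher. In 8 of the 102 each WT library held 3 counts or fewer, and their increases were at least 6.22-fold to at least 20.9-fold against that floor, taken per library. With these 8 at their bound the median was again 1.99. Of the 102, 99 were protein coding (97.1%, against 63.9% of tested genes). The number of higher genes was 58 without WT library 1, 62 without WT library 2, 63 without WT library 3 and 67 without HIF-2αDM library 2. The number of lower genes was 5 without HIF-2αDM library 1, 4 without HIF-2αDM library 2 and 5 without WT library 3.

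The largest increases, among genes with a mean level of at least 50, were in NKX2-5, CHST1, GPRC5C and ADAMTS7. NKX2-5, a homeobox transcription factor of heart development, stood at 168, 71.9 and 122 in HIF-2αDM and at 3.33, 0.954 and 3.57 in WT (log2 change 5.42, SE 0.64, adjusted p = 2.24e-05). CHST1, a sulfotransferase that acts on keratan sulfate, stood at 159, 174 and 173 against 1.66, 4.77 and 7.85 (5.08, SE 0.44, adjusted p = 2.73e-07). Both were all but silent in WT cells, and the HIF-2αDM libraries lay close together for CHST1 and further apart for NKX2-5. GPRC5C, an orphan G protein-coupled receptor, stood at 310, 538 and 300 against 6.66, 11.4 and 24.3 (4.71, SE 0.57, adjusted p = 1.09e-05). ADAMTS7, a secreted metalloproteinase that overlaps MORF4L1 on the other strand, stood at 114, 202 and 202 against 15.0, 6.68 and 8.56 (4.08, SE 0.45, adjusted p = 3.38e-06). Reads were counted without strand, so reads of overlapping genes on opposite strands cannot be assigned with certainty.

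Further increases included WLS, the carrier that brings Wnt proteins to the cell surface, at 264, 230 and 229 against 30.0, 23.8 and 27.8 (log2 change 3.14). RHOD, a small GTPase, stood at 338, 294 and 247 against 30.8, 52.5 and 37.1 (2.87). EPHB1, a receptor for ephrin-B ligands, stood at 291, 370 and 317 against 51.6, 61.0 and 34.2 (2.74). Each of these was higher in every HIF-2αDM library than in any WT library by a wide margin. The rest of the 15 largest increases were RSAD2 and CMPK2, described with the interferon-stimulated genes, and 6 genes with log2 changes of 2.75 to 3.23. ELFN1, a synaptic adhesion protein, stood at 74.9, 122 and 107 against 12.5, 9.54 and 9.99, and ETNK2, an ethanolamine kinase, at 148, 231 and 215 against 18.3, 12.4 and 34.2. PIK3AP1, an adaptor of PI3K signalling, stood at 167, 110 and 114 against 17.5, 16.2 and 15.0, and TMC6, which overlaps TMC8, at 98, 96.8 and 109 against 15.0, 18.1 and 8.56. The last were NRG2, a neuregulin, at 141, 147 and 153 against 8.32, 29.6 and 27.1, and RAB3IL1, an exchange factor for Rab GTPases, at 262, 215 and 238 against 25.0, 33.4 and 47.1. In none of the 6 did a WT library come near the lowest HIF-2αDM library. ELFN1 missed the threshold when any 1 WT library was left out.

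The rule for naming genes favours large folds, so some of the more abundant of the 102 are given here as well, chosen after their values were seen. After EPAS1, which is itself 1 of the 102, the highest normalised read count in HIF-2αDM was that of WNT7B, a secreted Wnt ligand, with a mean of 7378 ± 106 (SD, n = 3) against 2678 ± 633 in WT (log2 change 1.46, SE 0.23, adjusted p = 0.000506). EGFL7, a secreted factor known from endothelium, stood at 5391 ± 354 against 2492 ± 425 (1.11), the smallest increase of the 102. NPTXR, a neuronal pentraxin receptor, stood at 2597 ± 227 against 1091 ± 86.0 (1.25). FAM20C, the kinase that phosphorylates secreted proteins in the Golgi, stood at 2546 ± 111 against 780 ± 148 (1.71). DAB2IP, a Ras GTPase-activating protein, stood at 2364 ± 151 against 650 ± 133 (1.86). These genes were well expressed in WT cells, and their increases were smaller in fold than those of NKX2-5 or CHST1. PGF, the placental growth factor, was at a lower level, 229 ± 43.1 against 73.1 ± 17.7 (1.64, adjusted p = 0.00398).

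NKX2-5, GPRC5C and WLS also stood above WT in other lines of the batch, which share the WT libraries. NKX2-5 had a mean of 68.9 ± 17.1 (SD, n = 3) in HIF-2α R27E, 71.0 ± 6.84 in HIF-1αDM, 148 ± 81.8 in HIF-1α R30E and 108 ± 23.8 in HIF-1α, beside 121 ± 48.3 in HIF-2αDM and 2.62 ± 1.44 in WT. GPRC5C had a mean of 285 ± 106 in HIF-2α R27E, 879 ± 719 in HIF-1αDM and 783 ± 235 in HIF-1α R30E, beside 383 ± 135 in HIF-2αDM. WLS had a mean of 117 ± 8.07, 97.3 ± 14.5 and 454 ± 30.4 in the same 3 lines, beside 241 ± 20.0 in HIF-2αDM. In the KIN clones, which carry no transgene, NKX2-5 was at 0 in all 6 libraries and WLS had means of 7.30 ± 5.88 and 10.0 ± 7.01. Not all of the increases were low there. ADAMTS7 had means of 26.3 ± 3.73 in the HIF-1β clone and 170 ± 57.8 in the HIF-2α clone. Its means were 173 ± 50.8 in HIF-2αDM and 10.1 ± 4.35 in WT. PIK3AP1 was above WT in both clones (log2 differences 2.32 and 2.50), and RHOD was below WT in both (-5.16 and -6.31).

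**Figure D1:**
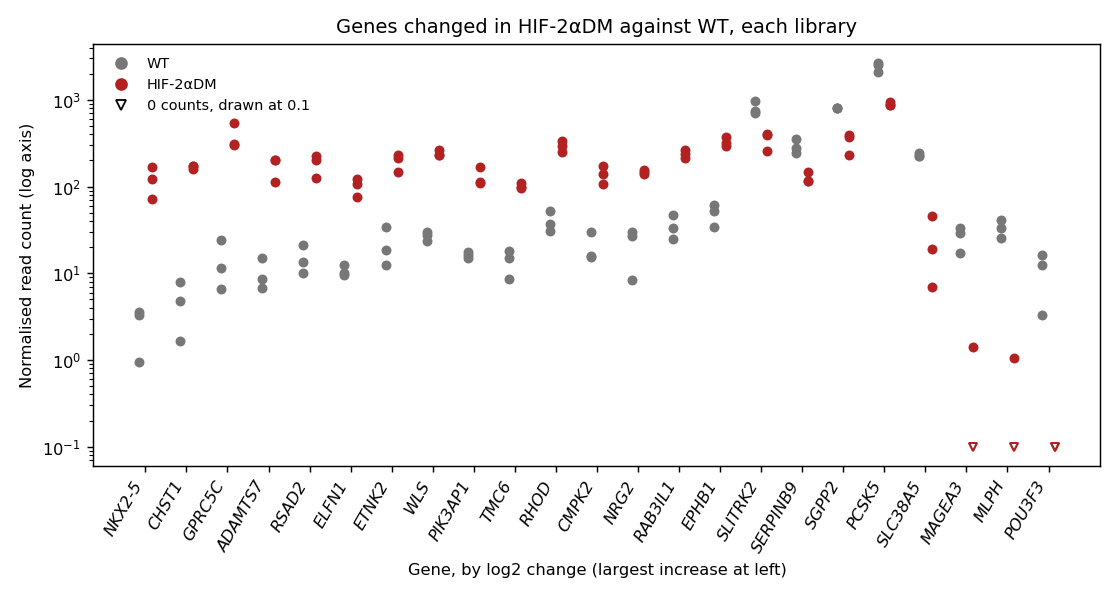
Normalised read counts on a log axis of the 15 largest increases and the 8 lower genes, 1 point per library, with HIF-2αDM in red and WT in grey. Open triangles mark 0 counts. The groups are separate for each gene, and the widest gaps are those of NKX2-5 and CHST1 among the increases.

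Only 8 genes fell, 5 of them well expressed in WT. PCSK5, a proprotein convertase, stood at 951, 873 and 874 in HIF-2αDM against 2530, 2651 and 2079 (log2 change -1.43, SE 0.16, adjusted p = 3.65e-06). SGPP2, a sphingosine 1-phosphate phosphatase, stood at 392, 232 and 376 against 816, 801 and 795 (-1.27). SLITRK2, a synaptic adhesion protein, stood at 255, 391 and 403 against 961, 706 and 753 (-1.20). SERPINB9, an inhibitor of granzyme B, stood at 116, 116 and 146 against 241, 357 and 280 (-1.21). The call for SLITRK2 was lost when any 1 of the 6 libraries was left out and that for SERPINB9 in 4 of those 6 cases. SLC38A5, an amino acid transporter, fell furthest among these, to 6.92, 45.8 and 18.8 from 226, 223 and 244 (-3.27, SE 0.38, adjusted p = 6.73e-06).

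The other 3 lower genes were all but absent in HIF-2αDM and are named here after their values were seen. MLPH, the melanophilin that links Rab27a to myosin, had 1 count over the 3 HIF-2αDM libraries and 121 over the 3 WT libraries, 108-fold fewer after scaling (95% interval 19.0 to 4304, exact, covering counting error only). MAGEA3, a cancer-testis antigen, had 2 counts against 94, 42-fold fewer (95% interval 11.3 to 352). POU3F3, a POU-domain transcription factor, had 0 counts against 40 and was at least 3.70-fold lower, with the floor taken as 3 counts per library. The call for POU3F3 was lost when any library but WT library 1 was left out.

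SLC38A5, MLPH, MAGEA3 and POU3F3 moved the other way in the line with functional HIF-2α. The part of dimerization in this was not tested. In the HIF-2α line SLC38A5 stood at 6937, 7466 and 8625, MLPH at 324, 422 and 639, MAGEA3 at 466, 524 and 445, and POU3F3 at 307, 436 and 643. WT cells lay between the 2 lines in each of the 4 genes. The direct difference between HIF-2αDM and HIF-2α was -8.33 on the log2 scale for SLC38A5 (adjusted p = 7.43e-13), -10.06 for MLPH (adjusted p = 5.45e-11), -9.37 for MAGEA3 (adjusted p = 1.24e-10) and -11.85 for POU3F3 (adjusted p = 1.67e-08). The fitted differences of the last 3 depend on the prior count, because HIF-2αDM was at the floor. The separate libraries of the second batch gave log2 increases with HIF-2α over their own WT cells of 4.52, 3.25, 3.98 and 3.82 in the same order.

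SLC38A5 was also low in several other groups. Its mean was 24.3 ± 4.91 (SD, n = 3) in HIF-2α R27E, 21.2 ± 9.84 in HIF-1α R30E and 91.3 ± 18.3 in HIF-1αDM, against 23.9 ± 19.9 in HIF-2αDM and 231 ± 11.2 in WT. In the untransposed KIN clones of HIF-1β and of HIF-2α it was 19.0 ± 5.88 and 19.3 ± 13.2. The functional HIF-1α line stood at 5953 ± 820. POU3F3, near the floor, was also below WT in HIF-2α R27E and in the KIN clones of HIF-1β and of HIF-2α. Its fitted log2 differences there were -6.45, -6.45 and -4.43, against 5.24 in the functional HIF-1α line. Between HIF-2αDM, WT and HIF-2α, the reverse order was seen in AIF1L, which encodes an actin-binding protein. It stood at 1363, 1184 and 1220 in HIF-2αDM, 653, 398 and 587 in WT and 286, 194 and 299 in HIF-2α. The direct log2 difference was 2.27 (adjusted p = 2.20e-07). AIF1L was also above WT in HIF-2α R27E (2000 ± 202), HIF-1α R30E (3593 ± 578), HIF-1αDM (1064 ± 115) and functional HIF-1α (1493 ± 129). Its mean was 8647 ± 2800 in the HIF-2α KIN clone and 178 ± 62.5 in the HIF-1β KIN clone. The increase of AIF1L in HIF-2αDM over WT missed the threshold when any 1 library was left out. The lines share the WT libraries, so their positions relative to WT are not independent.

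**Figure D2:**
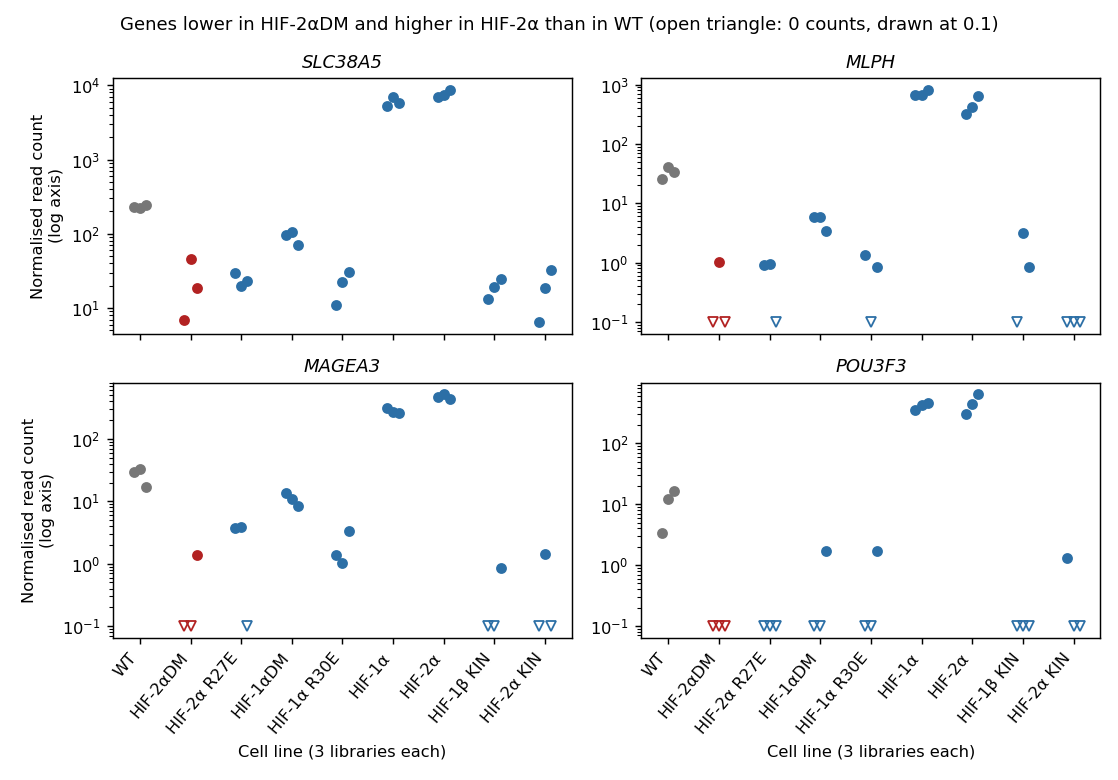
Normalised read counts of SLC38A5, MLPH, MAGEA3 and POU3F3 in the 9 groups of the first batch on a log axis, 1 point per library, with open triangles for 0 counts. Only the HIF-2α and HIF-1α lines lie above WT, and HIF-2αDM lies below WT in all 4 genes.

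The promoters of the changed genes were searched for the core of the hypoxia response element, ACGTG or GCGTG, on both strands of the 300-base RefSeq windows around the start site (GRCh38.p14). Of the 102 higher genes, 72 had a window and 35 of these (48.6%) held either core, against 60.5% of the 12661 tested genes with a window. Of the 8 lower genes, all had a window and 4 held a core (50%). ACGTG alone was found in 15.3% of the higher genes' windows and in 25.7% of all. SLC38A5, MLPH, MAGEA3 and POU3F3 were lower than WT with the mutant and higher with the functional protein. The windows of MAGEA3 and POU3F3 held neither core. Those of MLPH and SLC38A5 held ACGTG and are shown, with each ACGTG, read on either strand, in capitals. The MLPH window is chr2:237487001-237487300 on the plus strand and the SLC38A5 window is chrX:48470211-48470510 on the minus strand.
MLPH: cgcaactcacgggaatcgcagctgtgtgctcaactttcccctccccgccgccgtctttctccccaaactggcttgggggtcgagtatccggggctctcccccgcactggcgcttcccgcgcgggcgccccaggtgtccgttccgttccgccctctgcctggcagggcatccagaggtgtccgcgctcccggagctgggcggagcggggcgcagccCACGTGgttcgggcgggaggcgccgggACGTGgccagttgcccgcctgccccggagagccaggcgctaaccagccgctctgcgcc
SLC38A5: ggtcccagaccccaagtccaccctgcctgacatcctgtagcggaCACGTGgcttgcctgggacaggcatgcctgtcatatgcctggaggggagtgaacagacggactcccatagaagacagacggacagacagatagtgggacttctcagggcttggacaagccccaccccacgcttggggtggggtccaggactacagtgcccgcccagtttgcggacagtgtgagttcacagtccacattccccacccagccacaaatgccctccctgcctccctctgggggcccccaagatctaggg
In each, CACGTG reads as ACGTG on both strands. A match in these letters is not evidence of binding.

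No gene of the hypoxia lists passed the test between HIF-2αDM and WT. None of 25 classic hypoxia targets was called (median log2 change -0.20, against -0.02 over all genes tested) and none of 16 targets linked to HIF-2α (median -0.10). Over all tested genes only 0.436% were called higher and 0.0342% lower, so an absence of calls in lists this short says little by itself. NDRG1, a stress-response gene often used as a hypoxia marker, stood at 20407, 21594 and 18396 in HIF-2αDM and 26645, 31415 and 30453 in WT (log2 difference -0.55, adjusted p = 0.493). VEGFA, the angiogenic growth factor, stood at 13442, 14316 and 12783 against 16458, 17016 and 15816 (-0.28, adjusted p = 0.568). The libraries did not overlap for either gene, but neither difference passed the test. In the classic list 7 of 25 genes were lower in every HIF-2αDM library than in any WT library, and 3 were higher. In the HIF-2α-linked list 5 of 16 were lower in this way and 2 higher. Over all tested genes 8.87% were lower and 7.70% higher in this way. ANGPTL4, a regulator of lipoprotein lipase, differed by 1.07 (adjusted p = 0.0267). CXCR4, a chemokine receptor, stood at 1.15, 1.04 and 3.49 against 16.6, 18.1 and 15.0 (-2.95, adjusted p = 0.147). HIF-2αDM libraries 1 and 2 held fewer than 3 counts of it. In the direct comparison of HIF-2αDM with HIF-2α, 14 of the 25 classic targets and 11 of the 16 HIF-2α-linked targets were lower in HIF-2αDM, with medians of -1.21 and -2.03, against 2.57% of all tested genes called lower. NDRG1 differed by -4.49 and EGLN3, a HIF prolyl hydroxylase, by -3.69 on the log2 scale.

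Interferon-stimulated genes were the list with the most calls. Of 22 tested, 6 rose (RSAD2, CMPK2, IFI6, OASL, MX1 and MX2), against 0.436% of all tested genes called higher, none fell, and the median log2 change was 0.94. Other lines with inactive proteins were compared with the same WT libraries. Of the 22, 8 rose in HIF-2α R27E (median 1.19, 0.436% of all genes) and 7 in HIF-1αDM (median 1.14, 0.427%). In HIF-1α R30E 12 rose (median 1.68, 2.03%). In functional HIF-2α of this batch 3 rose (3.85%) and 1 fell (1.88%), with a median of 0.33. The second-batch HIF-2α libraries were higher than their WT in each of the 6 genes called here, against 5.33% of all genes tested there. Log2 changes ran from 1.36 for OASL to 3.09 for MX2. In the KIN clones of HIF-1β and of HIF-2α, RSAD2 differed from WT by -1.64 and -6.89 and OASL by -0.37 and -0.04. RSAD2, which encodes the antiviral protein viperin, stood at 127, 202 and 228 in HIF-2αDM against 9.99, 21.0 and 13.6 in WT (3.65, SE 0.47, adjusted p = 4.35e-05). CMPK2, a mitochondrial nucleotide kinase, stood at 108, 173 and 139 against 15.8, 15.3 and 30.0 (2.77, adjusted p = 0.000272). RSAD2 and CMPK2 overlap on opposite strands. IFI6, which is induced by interferon and has antiviral activity, stood at 5103, 4540 and 5535 against 1981, 1389 and 1602 (1.61, adjusted p = 0.000224). XAF1, the only 1 of the 22 with a negative value, differed by -0.60 (adjusted p = 0.780). The count of 6 genes raised in HIF-2αDM was 3 without HIF-2αDM library 1 or 3 or without any 1 WT library. The calls of OASL, MX1 and MX2, which encode antiviral proteins, were the ones lost in each case. OASL stood at 600, 722 and 605 against 178, 187 and 213, MX1 at 574, 337 and 472 against 168, 188 and 216, and MX2 at 144, 85.4 and 128 against 33.3, 22.9 and 26.4.

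OAS1, an enzyme that senses double-stranded RNA, had a log2 difference of 1.58 (adjusted p = 0.0273) and its relative OAS2 of 2.7 (adjusted p = 0.0429). ISG15, the ubiquitin-like modifier, differed by 0.82 (adjusted p = 0.153). Set against HIF-2α directly, 2 of the 22 were higher in HIF-2αDM (against 1.42% of all tested genes) and none was lower, with a median difference of 0.80. The WT cells had not been through transposition and selection, and the part of that in the interferon-stimulated genes was not tested. The promoter of IFI6, chr1:27672143-27672442 on the minus strand, is shown for its 3 copies, in capitals, of the core repeat of the interferon-stimulated response element, searched on both strands as GAAA, any 2 bases and GAAA. This motif was found in 2.96% of all windows and in 11 of the 15 listed interferon-stimulated genes with a window, called or not. Of the 4 called ones with a window 2 held it, IFI6 and MX1. RSAD2 and CMPK2 had none.
IFI6: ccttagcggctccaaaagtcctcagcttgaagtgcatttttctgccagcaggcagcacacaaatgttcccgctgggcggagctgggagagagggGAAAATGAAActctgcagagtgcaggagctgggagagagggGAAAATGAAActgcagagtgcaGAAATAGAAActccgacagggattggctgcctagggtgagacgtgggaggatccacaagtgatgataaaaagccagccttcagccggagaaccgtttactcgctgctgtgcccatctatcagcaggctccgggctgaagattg

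**Figure D3:**
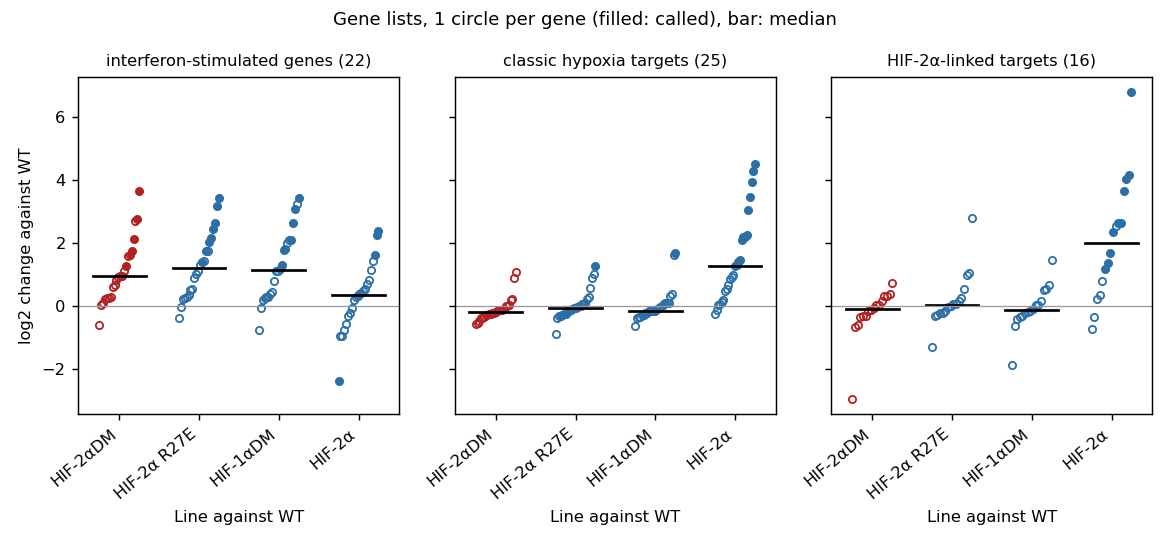
Log2 change against WT of the interferon-stimulated genes, the classic hypoxia targets and the HIF-2α-linked targets in HIF-2αDM, HIF-2α R27E, HIF-1αDM and HIF-2α, 1 circle per gene, filled where called, with bars at the medians. In HIF-2αDM the 2 target lists have medians of -0.20 and -0.10, and the interferon-stimulated genes have a median of 0.94.

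Lists of other processes gave few calls. Over all tested genes 0.436% were called higher and 0.0342% lower, which applies to each list here. GDF15, a stress-induced cytokine and p53 target, was the only called member of 10 p53 targets, at 1001, 1199 and 1157 against 408, 375 and 315 (log2 change 1.61, adjusted p = 0.000176). CDKN1A, the cell cycle inhibitor p21, stood at 18880, 21211 and 18479 against 10525, 10348 and 10559, and passed the p threshold (adjusted p = 0.00695) but not the fold (0.90). The groups did not overlap in either gene. The 59 histone genes had a median log2 change of 0.91, and 49 of them were positive. Over all tested genes the median was -0.02 and 46.8% were positive. Of the 59, 2 were called higher. HIST1H1C stood at 347, 525 and 276 against 174, 177 and 146 and HIST1H2AG at 103, 192 and 78.1 against 48.3, 37.2 and 41.4. HIF-2αDM library 2 was the highest in both. These calls were lost in 5 and 4, respectively, of the 6 fits that left out 1 library, and both were lost when the 2 groups were fitted alone. EPAS1 itself was the only called member of 15 bHLH-PAS genes. No member was called among 21 genes of glycolysis, 17 of the extracellular matrix, 16 of proliferation, 15 of unfolded protein and amino acid stress, 13 of NF-kB and cytokines, 11 immediate early genes, 7 AHR targets and 5 HIF hydroxylases with VHL, nor among 28 mitochondrially encoded genes (median log2 change 0.51). Of the genes for which the study shows RNA-seq, GPRC5C rose and PPFIA4, PTPRN, HSD3B7, PLXNA2, PGK1, TGFA and CPE were not called.

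In the second batch, whose libraries are not shared with this comparison, 1530 genes were higher with functional HIF-2α than in WT (5.33% of 28724 tested). The WT cells of that batch were not transposed or selected either, so protein and procedure cannot be told apart there as well. Of the 1530 genes, 1481 were tested in the first batch, with a median log2 change of 0.26 in HIF-2αDM. There 79 rose with HIF-2αDM (5.33%, against 0.436% of all tested genes) and 5 fell (0.338%, against 0.0342%). With the HIF-2α protein of the first batch, 743 of the 1481 rose (against 3.85% of all tested genes), with a median of 1.71. Other mutants were compared with the same WT libraries. HIF-2α R27E gave 79 higher (5.33%, against 0.436% of all tested genes) and a median of 0.42. HIF-1αDM gave 73 higher (4.93%, against 0.427%) and a median of 0.42. Seen from the other side, 79 of the 102 genes raised by HIF-2αDM were among those raised by HIF-2α in the second batch (77.5%), 1, AIF1L, was lowered (2.22% of all genes tested there were) and 22 were not called. The count of 79 was 44 without WT library 1, 46 without WT library 2, 50 without WT library 3 and 51 without HIF-2αDM library 2.

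Some of the largest increases were among these 22 genes. NKX2-5, TMC6 and RHOD were not called with HIF-2α in the second batch, where their log2 differences from WT were 0.32, 0.16 and 0.55. In the first batch they were higher in HIF-2αDM than in HIF-2α by 3.51 (adjusted p = 0.000165), 3.90 (adjusted p = 1.77e-06) and 1.62 (adjusted p = 0.00335). PIK3AP1 rose with HIF-2αDM and with HIF-2α of the second batch but was also higher in HIF-2αDM than in HIF-2α, by 2.13 (adjusted p = 5.03e-06). CHST1 went the other way and was lower in HIF-2αDM, with a log2 difference of -1.79 (adjusted p = 0.000744), and GPRC5C did not pass the test (-0.19, adjusted p = 0.880). SGPP2 fell further with HIF-2α, so that HIF-2αDM was higher by 2.06 (adjusted p = 4.66e-07).

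**Figure D4:**
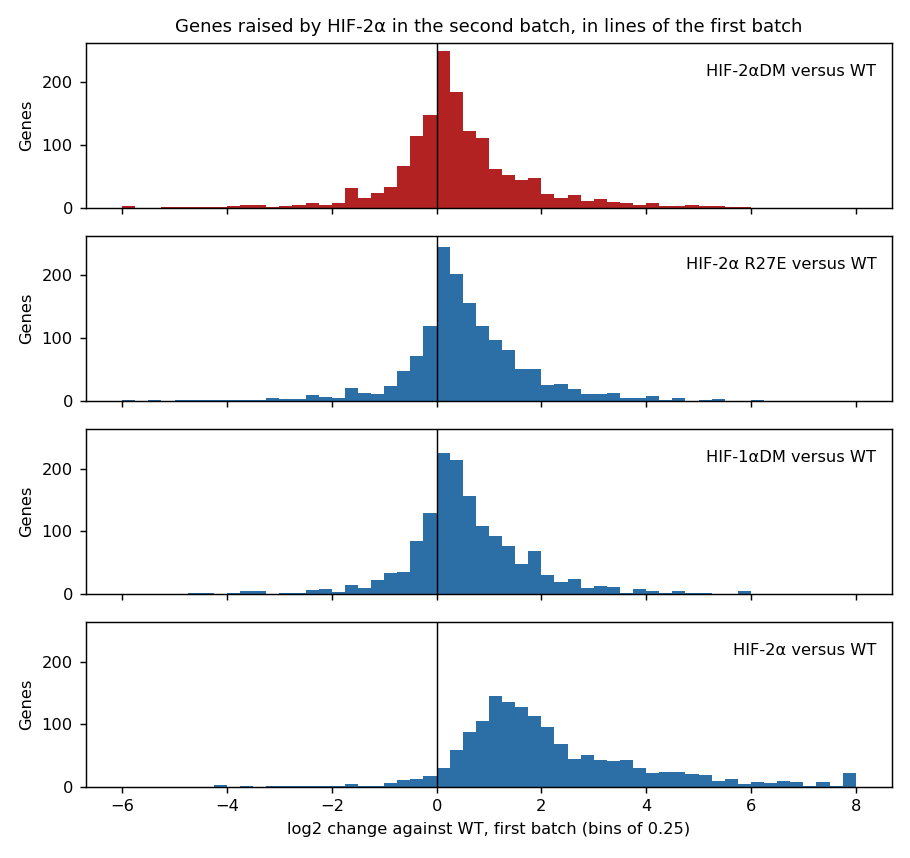
Histograms of the log2 change against WT in the first batch of genes raised by HIF-2α in the second batch, for HIF-2αDM, HIF-2α R27E, HIF-1αDM and HIF-2α, with values beyond the axis put in the end bins. The median is 0.26 in HIF-2αDM, 0.42 in HIF-2α R27E and in HIF-1αDM, and 1.71 in HIF-2α.

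HIF-2αDM differed from the DNA-binding mutant in few genes. Against HIF-2α R27E, 1 gene was higher (0.00427%) and 5 were lower (0.0214%). CHST1 was the higher gene, at 159, 174 and 173 against 24.1, 18.1 and 50.2 (2.45, SE 0.37, adjusted p = 0.00388). NDRG1 was lower, at 20407, 21594 and 18396 against 56221, 70862 and 83307 (-1.80, SE 0.23, adjusted p = 0.000938). F3, the tissue factor that starts coagulation, was lower at 1672, 1777 and 2078 against 3989, 3637 and 4553 (-1.14, SE 0.19, adjusted p = 0.00767). COL5A2, a fibrillar collagen chain, TRABD2A, a Wnt-inhibiting metalloprotease, and KCNMB4, a potassium channel subunit, were also lower, with log2 differences of -1.5, -1.32 and -1.28. No gene was called without HIF-2αDM library 1 or without HIF-2αDM library 3, and the 6 calls fell to 2 without HIF-2αDM library 2, 3 without HIF-2α R27E library 1 and 1 without HIF-2α R27E library 2. A fit on these 2 groups alone called 0 genes with edgeR, with 645 genes at an unadjusted p of at most 0.05, and DESeq2 on all libraries called 6 higher and 17 lower.

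**Figure D5:**
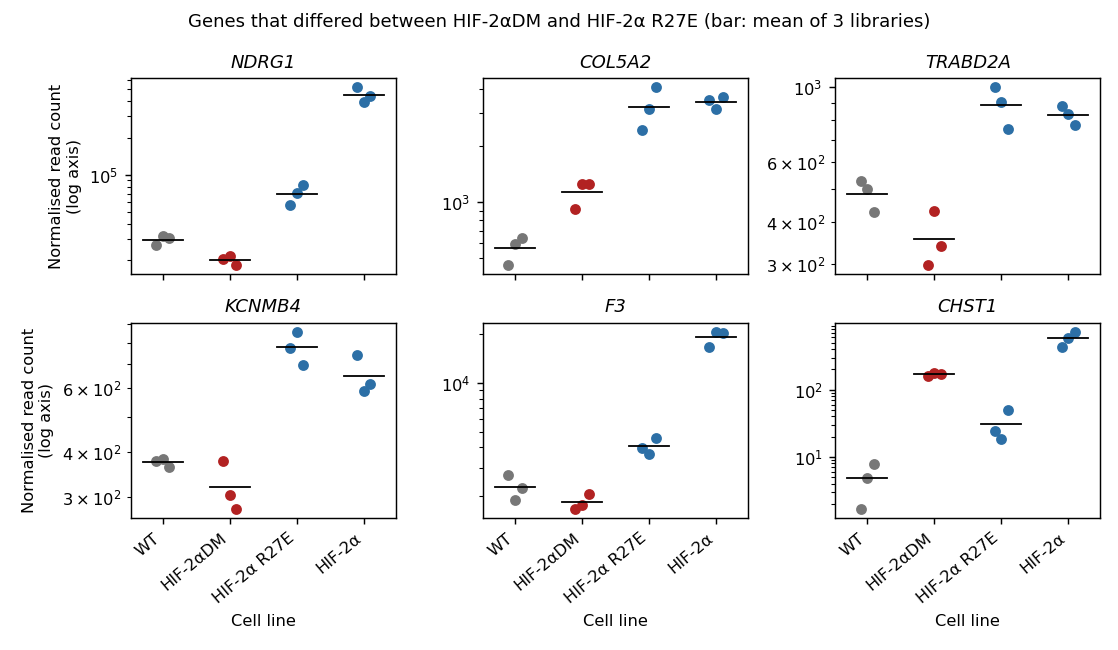
Normalised read counts of NDRG1, COL5A2, TRABD2A, KCNMB4, F3 and CHST1 in WT, HIF-2αDM, HIF-2α R27E and HIF-2α on a log axis, 1 point per library, with bars at the means. HIF-2αDM and HIF-2α R27E do not overlap in any of the 6 genes, and CHST1 is the one in which HIF-2αDM is higher.

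Against HIF-1αDM, the dimerization mutant of the other α subunit, 2 genes were higher (0.00854%) and 1 was lower (0.00427%). EPAS1 was higher by 2.09 and HIF1A differed by -3.54, each the gene of one transgene. RHOD was the third gene, higher by 2.48 (SE 0.37, adjusted p = 0.00412), with 338, 294 and 247 in HIF-2αDM against 50.0, 44.9 and 62.1. Only 1 of the 2 higher genes was called when any library but HIF-2αDM library 3 was left out. A p above the threshold does not show that the 2 mutants act alike in the other genes. Against HIF-2α, 332 genes were higher (1.42%) and 602 lower (2.57%), and no gene was called in the same direction against each of the 8 other groups of the first batch.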

How the data were processed

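Poly(A) RNA-seq was analysed from 6 libraries, 3 of HIF-2αDM and 3 of WT, grouped by their labels, within a fit of all 27 first-batch libraries. The authors deposited raw counts per gene. Per the labels, reads were aligned to hg38 with STAR (2.7 in the submitters' processing notes) and counted with HTSeq (0.11.1), and by the study's methods only unique alignments were kept, without strand. Each file lists 60609 genes.

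Counts were scaled by TMM and tested with edgeR 4.0.16 (R 4.3.3), two-sided, with Benjamini-Hochberg adjustment over all genes with a mean normalised count of at least 0.5. A gene was called at an adjusted p of at most 0.01 and a fold of at least 2. Genes named were the HIF subunits, genes the study shows, the 15 largest increases and 8 largest decreases with a mean of at least 50, called list members, and calls against the other mutants; others are said to be named after their values were seen. The members and gene lists were chosen with earlier results of these data known. Gene positions are from GENCODE version 44. Alternatives were DESeq2 1.42.0, other scaling and filters, a replicate block, fewer groups and each library left out. Simulated counts of 22902 genes took each gene's mean over the 27 first-batch libraries, the same in every group, with changes planted only in HIF-2αDM. In a fit of all 27, HIF-2αDM versus WT called 92% of 4-fold and 40% of 2-fold increases. Changes were planted only in genes with a mean normalised count of at least 50, so recovery at lower levels was not measured. Counts of 2 libraries of a group differed beyond sampling noise.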

Additional observations from a re-analysis of the deposited data

Results flagged for a closer look

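In 5 genes HIF-2αDM and HIF-2α were each called against WT in opposite directions, and the difference between the 2 lines was tested in the edgeR fit. It was -8.33 on the log2 scale for SLC38A5, -10.06 for MLPH, -9.37 for MAGEA3 and -11.85 for POU3F3, with lower levels in HIF-2αDM. It was 2.27 for AIF1L, with a higher level in HIF-2αDM.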

How the results depend on the processing

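No called result changed sign, but some differences that were not called did when single libraries were left out, among them PGK1 (-0.33 to 0.15) and CPE (-0.08 to 0.48). The comparison with WT gave 102 higher and 8 lower genes. DESeq2 gave 185 and 18, no filter on low counts gave 174 and 35, and the groups compared alone gave 18 lower. Against HIF-2α R27E, where 1 and 5 were called, DESeq2 gave 6 and 17, no filter 12 and 28, the groups compared alone 0 and 0, and omitting the libraries numbered 3 gave 12 lower. Against HIF-1αDM, where 2 and 1 were called, DESeq2 gave 9 and 7, no filter 10 and 14, and omitting the libraries numbered 3 gave 2 lower. DESeq2 kept all 102 and 8 genes called against WT. The causes were not tested.

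With a replicate block, the counts were 182 and 20 against WT, 6 and 20 against HIF-2α R27E and 7 and 6 against HIF-1αDM. In their deviations from the group means, same-numbered libraries correlated at 0.094, 0.158 and 0.429. The mean correlations with the other numbers were -0.0323, -0.0539 and -0.251. Deviations within a group cancel out, so these values are not independent of the former. Of 6 libraries, 3 correlated best with their own number in the other group. Whether the numbers mark pairs was not settled, and the main fit did not use them.

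With single libraries left out, the counts ranged from 58 to 87 higher and 4 to 7 lower against WT, 0 to 1 and 0 to 4 against HIF-2α R27E, and 1 to 2 and 1 to 2 against HIF-1αDM. Of 32 named calls, 21 held in all 13 alternatives. On the simulated data of 27 libraries, 28% of 2-fold and 92% of 4-fold decreases were called, all planted in genes with a mean normalised count of at least 50.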
